A study of Mus musculus with 6 samples.

Results

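Interleukin (IL)-15, IL-2, IL-7 and IL-21 signal through receptors that share the common gamma chain, and 10 genes of this pathway are described here: the receptor chains Il2ra, Il2rb, Il2rg, Il15ra, Il7r and Il21r, the kinases Jak1 and Jak3, and the transcription factors Stat5a and Stat5b. They were found by gene symbol in the platform's annotation, among 19938 genes with a probe set of their own. Of the 10, 8 had 1 probe set naming that gene alone. Jak3 shared its probe set with Insl3, its neighbour on chromosome 8 and a hormone gene of the gonads, so that its level cannot be told apart from that of Insl3. Il2rg, which encodes the common gamma chain, had no annotated probe set, and no value for it is reported here.

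Expression was measured on 6 Affymetrix arrays. Each held RNA of natural killer (NK) cells that were taken from spleens of C57Bl/6 mice aged 8 to 12 weeks and sorted directly after harvest as YFP+, CD27+, NK1.1+ and CD3-. There were 3 arrays of cells of genotype 15a/16-1FKO, called knockout here, and 3 of genotype Ctrl, called control. The gate on YFP was shared by both genotypes, and neither the alleles of the controls, nor the driver of YFP and deletion, nor the number of animals behind an array are given in the labels. The series design describes the arrays as technical replicates, so that p-values measure the spread between these arrays. Sex-linked transcripts differed so far between control arrays that these did not all hold the same RNA.

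IL-15 is the cytokine on which NK cells depend for development and survival. It is presented in trans, bound to IL-15 receptor alpha (Il15ra) on neighbouring cells, to a signalling pair on the NK cell made of the beta chain (Il2rb, also called CD122) and the common gamma chain. JAK1 binds the beta chain and JAK3 the gamma chain, and together they phosphorylate STAT5A and STAT5B, which then enter the nucleus and bind DNA at the motif TTCNNNGAA. IL-2 uses the same pair and gains affinity through Il2ra (CD25), IL-7 uses Il7r (CD127), and IL-21 uses Il21r. Il7r is carried by immature NK cells and by other innate lymphoid cells. The comparison bears on whether deleting the genes of microRNA-15a and microRNA-16-1 goes with other levels of these messages.

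The mature strands encoded at the deleted locus are shown because their seed, in capitals (bases 2 to 8), pairs with target messages, and both share it. Whether other loci supply the same strands or seed is not described here. The sequences are those of RefSeq on GRCm38.p6, at chr14:61632075-61632096 and chr14:61631936-61631957 on the minus strand.
mmu-miR-15a-5p: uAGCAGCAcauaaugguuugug
mmu-miR-16-5p: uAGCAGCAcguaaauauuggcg

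The probe set of Mir15a separated the genotypes, at log2 levels of 7.14, 6.02 and 6.69 in control arrays 1 to 3 and 4.37, 3.53 and 3.43 in knockout arrays 1 to 3. Mir16-1 lay at 3.19, 3.20 and 3.77 in control and 2.61, 2.68 and 3.00 in knockout arrays, all under the background level used here. That level, 4.13, is the one below which 95% of 1027 olfactory receptor genes lay, and 10892 of 19938 genes had a mean above it. NK cell markers outside the receptor list were above it in 10 of 10 cases, with a summed linear level of 13526 to 13681 in control and 13278 to 14970 in knockout arrays. Among 10 T cell markers, Cd4, Cd8a, Cd8b1, Cd5 and Cd6 had means under background, and Cd3d, Cd3e, Cd3g, Lef1 and Cd28 lay above it. Above it, too, were 3 of 9 measured B cell markers (Cd22, Cd79b and Pax5) and 6 of 10 myeloid markers. Summed linear levels of the myeloid markers were 796 to 1201 in control and 1038 to 1323 in knockout arrays. Their differences were positive in 7 and negative in 3, the largest that of S100a8 at 0.77 (SE 0.32, limma adjusted p = 0.999), overlapping between genotypes. Control arrays 1 and 2 stood apart in sex-linked transcripts, at opposite ends. Control array 2 had Xist at 3.89, against 7.56 to 9.65 in the other 5 arrays. Control array 1 had the Y-linked Eif2s3y at 2.33, against 6.18 to 7.95 in the other 5. Control array 3 and all 3 knockout arrays had both transcripts above background.

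No receptor, JAK or STAT5 message was called different: 0 of the 8 genes passed an adjusted p of 0.05 in limma's moderated test. Over all 19938 genes 0.0201% did, so that a count of 0 among 8 says little about these genes. By direction, 0 rose and 0 fell, beside 0.015% and 0.00502% of all genes. At an unadjusted p under 0.05 the count was also 0 of 8, against 3.47% of all genes. The log2 differences, knockout minus control, ran from 0.01 for Stat5b to 0.35 for Il15ra, all 8 of them positive, with a median of 0.11. Over all genes 47.9% of differences were positive and the median was -0.01. Over the 10892 genes above background, where 7 of the 8 lay, 51.0% were positive and the median was 0.005. The probe set shared by Jak3 and Insl3, not counted among the 8, differed by -0.15. The median size of a difference regardless of sign was 0.11 in the 8 genes and also 0.11 over all genes. The 95% intervals, on the fold scale, reached from 0.798 at the lowest (Stat5b) to 1.87 at the highest (Il15ra). None of the 8 genes lies on chromosome 14, which carries the deleted locus.

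**Figure D1:**
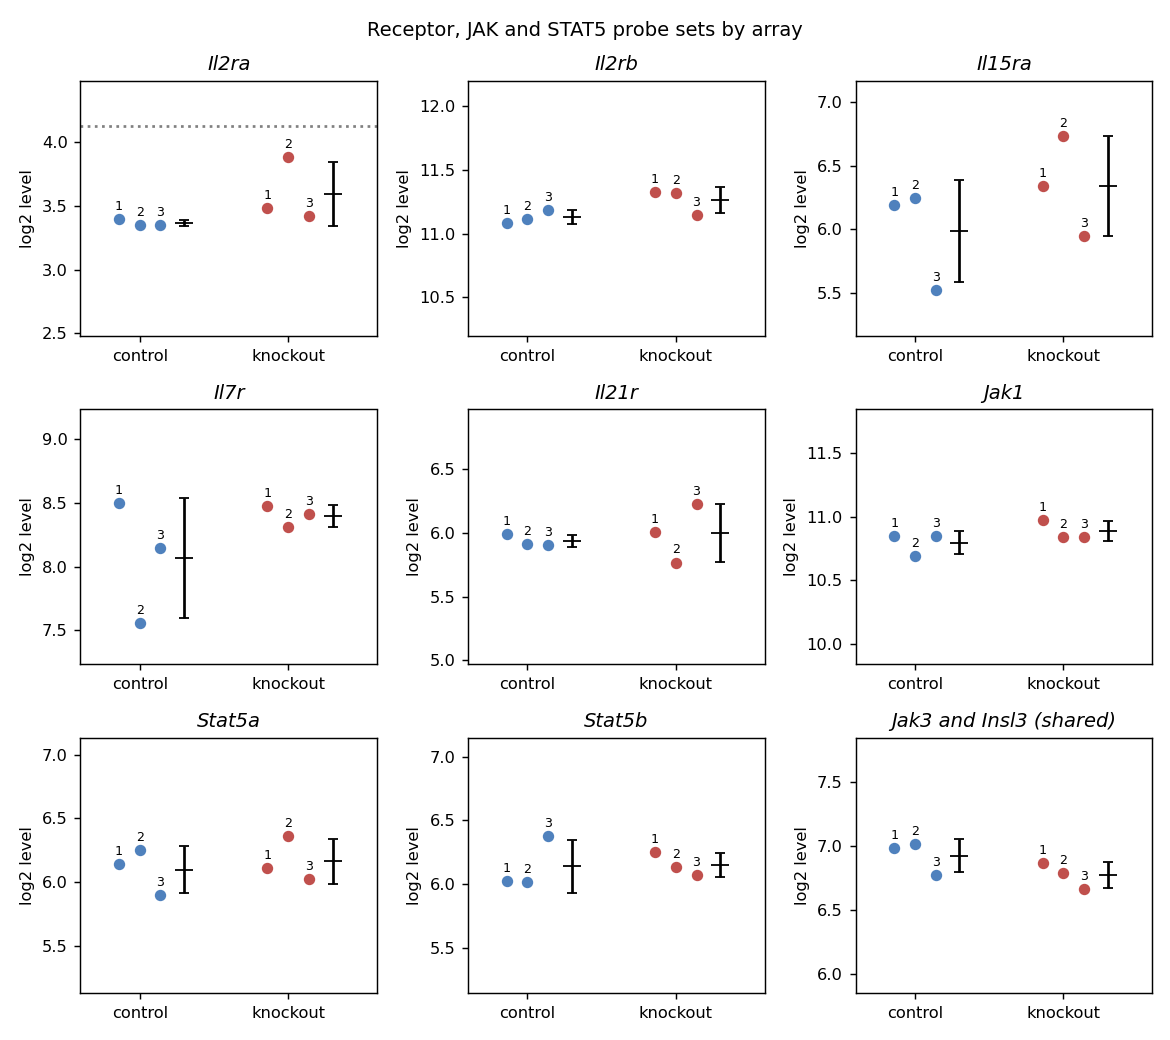
Log2 level (vertical axis, each panel spanning the same number of log2 units) of the 8 genes with a probe set of their own and of the probe set shared by Jak3 and Insl3, in control (blue) and knockout (red) arrays, numbered by replicate, with the mean and SD of 3 arrays in black and the background level of 4.13 as a dotted line. The genotypes overlap in every panel except Il2ra, which lies under background, and the control arrays of Il7r and both genotypes of Il15ra are spread widely.

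Among the receptors, the signalling chain Il2rb was measured most tightly. Its log2 levels were 11.08, 11.12 and 11.19 in control arrays 1 to 3 and 11.33, 11.32 and 11.15 in knockout arrays 1 to 3. Knockout arrays 1 and 2 were above every control array, while knockout array 3 fell within the control range. The mean was 11.27 ± 0.10 in knockout and 11.13 ± 0.05 in control (SD, n = 3 arrays each), a log2 difference of 0.14 (SE 0.13, limma adjusted p = 0.999). On the fold scale this was 1.10, with a 95% interval of 0.895 to 1.35. Only 5.64% of all genes had a smaller spread within genotypes than Il2rb, and its interval was the narrowest of the 8.

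Il15ra, the high-affinity IL-15 binding chain, had the largest difference of the 8 and also the largest spread. Its log2 levels were 6.19, 6.25 and 5.52 in control arrays 1 to 3 and 6.34, 6.73 and 5.95 in knockout arrays 1 to 3. Array 3 was the lowest of its genotype in both, knockout array 2 was the highest of all, and the genotypes overlapped. The means were 6.34 ± 0.39 in knockout and 5.99 ± 0.40 in control (SD, n = 3 each), a log2 difference of 0.35 (SE 0.24, limma adjusted p = 0.999) and a fold of 1.28 with an interval of 0.874 to 1.87. The difference was smaller than the SD within either genotype, and 93.0% of all genes had a smaller within-genotype spread. Without control array 3 it was 0.12, and without knockout array 3 it was 0.55.

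Il2ra, the alpha chain that raises affinity for IL-2 and appears on activated lymphocytes, was below background on all 6 arrays. Its log2 levels were 3.39, 3.35 and 3.35 in control arrays and 3.49, 3.88 and 3.42 in knockout arrays. All 3 knockout arrays were above all 3 control arrays, which happened in the same direction for 3.68% of all genes. The difference of 0.23 (SE 0.16, limma adjusted p = 0.999) was measured between signals that both lie under 4.13, and knockout array 2 carried most of it: without that array it was 0.09. Il2ra and Il15ra are direct neighbours on chromosome 2, with 0 protein-coding genes between them in the GRCm38.p6 gene table.

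Il7r, the IL-7 receptor alpha chain and a mark of immature NK cells, was uneven between control arrays and even between knockout arrays. Its log2 levels were 8.50, 7.56 and 8.15 in control arrays 1 to 3 and 8.47, 8.31 and 8.41 in knockout arrays 1 to 3. The knockout arrays lay close together, control array 1 was above all of them, and control array 2 was the lowest of the 6. The means were 8.40 ± 0.08 in knockout and 8.07 ± 0.47 in control (SD, n = 3 each), a log2 difference of 0.33 (SE 0.22, limma adjusted p = 0.999), with a fold of 1.26 and an interval of 0.894 to 1.77. Without control array 2, the array with low Xist, the difference was 0.08 (SE 0.17), and with sex-linked transcripts as a covariate it was 0.32 (SE 0.16). Without control array 1, the array with low Eif2s3y, it was 0.54 (limma unadjusted p = 0.0248, adjusted p = 1.00).

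Markers of cells that carry Il7r were read beside it. The 8 other genes of the immature CD27+ CD11b- stage (Kit, Emb, Ccr2, Ltb, Thy1, Xcl1, Cd226 and Cd27) had a mean log2 level of 8.64 to 8.88 in control and 8.95 to 9.18 in knockout arrays. Their summed linear level was 5004 to 5495 in control and 5492 to 6542 in knockout arrays. Their differences were uneven: Kit 0.69, Ltb 0.51, Emb 0.43, Ccr2 0.32, Thy1 0.21, Xcl1 0.19, Cd27 0.09 and Cd226 -0.18. Kit, Emb and Ccr2 alone had no overlap between genotypes, as for 3.68% of all genes in that direction. The 9 other genes associated with type 1 innate lymphoid cells, 6 of them above background, had mean log2 levels of 4.81 to 4.88 in control and 4.81 to 4.99 in knockout arrays, and summed linear levels of 510 to 625 and 561 to 710. Of the 6 measured markers of type 2 and type 3 innate lymphoid cells, Gata3, Icos and Il17rb had means above background and Ccr6, Ltb4r1 and Il23r under it, and their summed linear levels were 246 to 330 in control and 219 to 349 in knockout arrays. The 10 T cell markers had mean log2 levels of 5.44 to 5.51 in control and 5.36 to 5.64 in knockout arrays, which overlap. Their summed linear levels, 803.1 to 908.3 in control and 910.4 to 1079 in knockout arrays, were parted only by the narrow step from 908.3 to 910.4. Such a sum weighs bright genes most. Cd28, the brightest of the 10, was the sole one without overlap, higher in knockout as for 3.68% of all genes. Of the 10 differences 5 were positive, the largest that of Cd28 at 0.43, and 5 negative, among them Cd3e at -0.19. Cd27 was itself a marker of the sort, so the stage genes do not give the share of that stage. The part of these markers in the Il7r values was not tested. In sorted bulk cells a larger share of Il7r-bearing cells and more message per cell cannot be told apart.

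Il21r, the IL-21 receptor chain, had log2 levels of 5.99, 5.92 and 5.91 in control arrays and 6.00, 5.77 and 6.22 in knockout arrays. The control arrays were tight and the knockout arrays spread to both sides of them. The difference was 0.06 (SE 0.15, limma adjusted p = 0.999), a fold of 1.04 with an interval of 0.823 to 1.32.

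The receptor-bound kinase Jak1 was, beside Il2rb, the other message with a small spread. Its log2 levels were 10.85, 10.69 and 10.85 in control arrays and 10.97, 10.84 and 10.84 in knockout arrays. Knockout arrays 2 and 3 fell within the control range and array 1 lay above it. The difference was 0.09 (SE 0.13, limma adjusted p = 0.999), a fold of 1.07 with an interval of 0.867 to 1.31, and 6.17% of all genes had a smaller within-genotype spread. The probe set shared by Jak3 and Insl3 had log2 levels of 6.98, 7.02 and 6.77 in control arrays and 6.86, 6.79 and 6.66 in knockout arrays, the sole one of the 9 probe sets with a lower knockout mean. When all 35556 probe sets were tested together, its difference was -0.15 (SE 0.13, limma adjusted p = 1.00), with a fold interval of 0.720 to 1.12.

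STAT5A and STAT5B are closely related factors encoded side by side on chromosome 11, with 0 protein-coding genes between them. Their relation is visible in the promoter entries of RefSeq, where the most alike ungapped stretches of 60 bases share 53 of them. They are shown with shared bases in capitals, from GRCm38.p6, chr11:100860418-100860477 on the plus strand for Stat5a and chr11:100822568-100822627 on the minus strand for Stat5b, beginning 66 and 57 bases before an annotated start.
Stat5a: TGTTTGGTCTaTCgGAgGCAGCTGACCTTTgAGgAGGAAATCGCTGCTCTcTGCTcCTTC
Stat5b: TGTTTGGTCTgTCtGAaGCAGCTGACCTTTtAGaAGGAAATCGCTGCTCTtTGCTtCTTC

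Neither STAT5 message separated the genotypes. Stat5a lay at 6.14, 6.25 and 5.90 in control arrays and 6.11, 6.36 and 6.02 in knockout arrays, with array 2 highest and array 3 lowest in both genotypes. Stat5b lay at 6.02, 6.02 and 6.38 in control arrays and 6.25, 6.14 and 6.07 in knockout arrays, with control array 3 the highest of the 6. The difference was 0.07 (SE 0.16) for Stat5a and 0.01 (SE 0.15) for Stat5b, both with a limma adjusted p of 0.999. On the fold scale the intervals were 0.821 to 1.34 for Stat5a and 0.798 to 1.28 for Stat5b. Leaving out single arrays turned the sign of both.

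**Figure D2:**
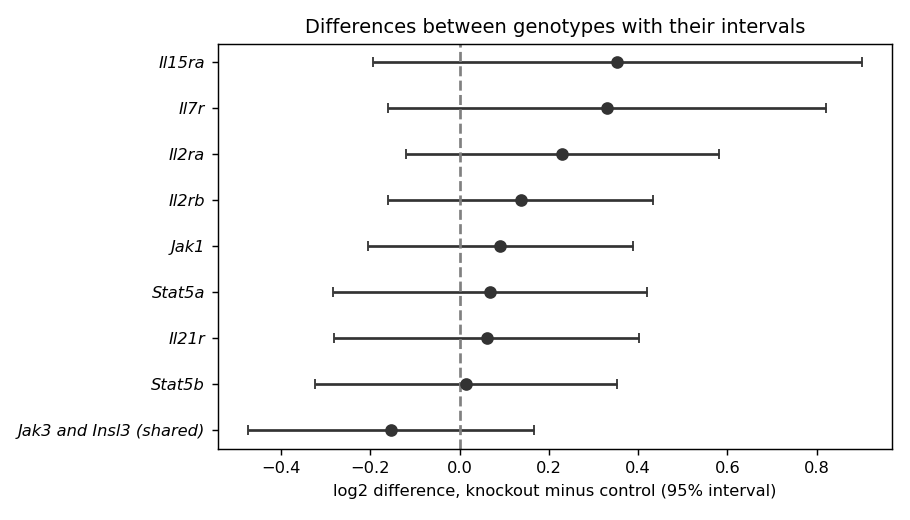
Log2 difference between genotypes, knockout minus control (horizontal axis), for each gene and for the probe set shared by Jak3 and Insl3, with 95% intervals from limma as bars. All 9 intervals include 0, and those of Il15ra and Il7r are the widest.

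The array profile of Il15ra, which had the widest range of the 8 genes, was compared with all genes above background. Likeness was the root mean square difference between log2 profiles over the 6 arrays, each centred on its own mean. The nearest genes were Pigv, an enzyme of glycosylphosphatidylinositol anchor synthesis (0.09), Ap1ar, a regulator of a clathrin adaptor complex (0.11), and Sprtn, a protease that repairs DNA-protein crosslinks (0.11). Pigv, for example, was at 6.18, 6.24 and 5.69 in control arrays and 6.47, 6.71 and 6.13 in knockout arrays. It was lowest in array 3 of each genotype, as its selection for likeness to Il15ra entails. Of the other 7 receptor, JAK and STAT5 genes, Stat5a came closest (0.23, the 411th nearest), and Stat5b (0.44) and Il7r (0.47) were far from it. These distances describe 6 arrays and carry no test.

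**Figure D3:**
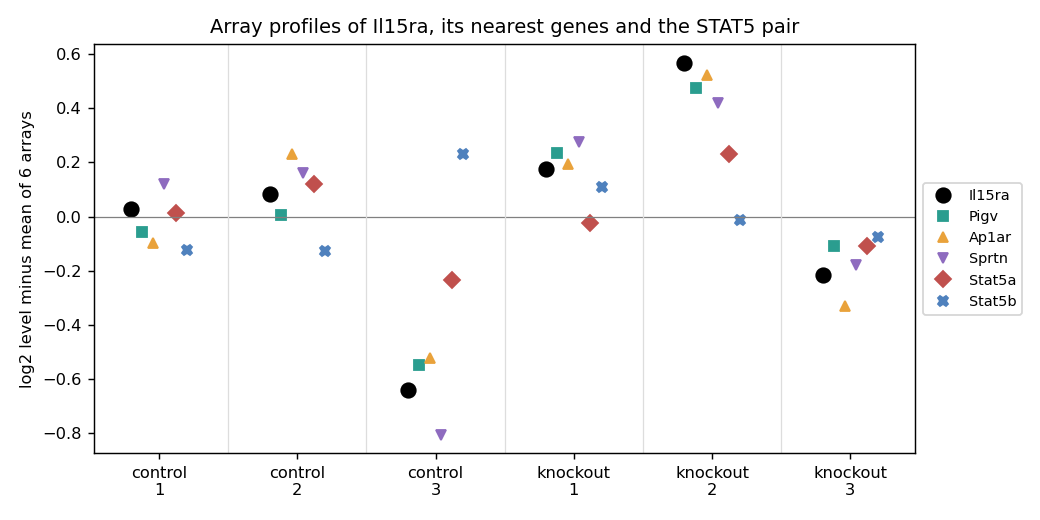
Log2 level minus the gene's mean over the 6 arrays (vertical axis) for Il15ra, its 3 nearest genes and the STAT5 pair, by array (horizontal axis). Il15ra, Pigv, Ap1ar, Sprtn and Stat5a are low in array 3 of both genotypes and high in knockout array 2, while Stat5b is highest in control array 3.

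Genes around the receptors were then read by role. In the 6 lists, 0 genes passed the adjusted threshold in either direction, beside 0.0201% of all genes. At that share, a count of 0 in lists of this size says little about their genes. Ligands lay mostly under background: of the 7 genes Il2, Il4, Il7, Il9, Il15, Il21 and Tslp, Il2 and Il15 alone had means above background, and 2 differences were positive and 5 negative, with a median of -0.13. Il15 itself lay at 4.43, 5.45 and 4.73 in control arrays and 5.30, 4.53 and 4.40 in knockout arrays, overlapping. Il2 had a mean above background only through control array 3, at 5.44, while the other 5 arrays lay between 3.68 and 4.11, under background, and its difference of -0.70 (SE 0.34) rests on that array. The dim Il21 and Il9 differed by -0.21 (SE 0.14) and -0.17 (SE 0.15), and Tslp, the IL-7-like ligand, by 0.10 (SE 0.14), all under background.

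The partner chains Il4ra (IL-4 receptor alpha), Il9r and Crlf2 (the TSLP receptor, which pairs with Il7r) differed by 0.29 (SE 0.18), -0.17 (SE 0.15) and 0.04 (SE 0.16). Of the 6 measured of 7 other JAK and STAT genes, 4 differences were positive and 2 negative, with a median of 0.05. The smallest unadjusted p-values among them were those of Stat4, which carries IL-12 signals, at 0.20 (SE 0.16), Jak2 at 0.14 (SE 0.14), Stat6, which carries IL-4 signals, at -0.10 (SE 0.16), and Stat2 of the interferon pathway at 0.04 (SE 0.13). At an unadjusted p under 0.05 the count was 0 in both lists, against 3.47% of all genes.

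Among 13 negative regulators, 6 differences were positive and 7 negative, with a median of -0.06, and 2 had an unadjusted p under 0.05, against 3.47% of all genes. Cish, a feedback inhibitor of IL-15 signalling whose gene STAT5 induces, was at 4.74, 5.01 and 4.71 in control arrays and 4.60, 4.43 and 4.39 in knockout arrays. All 3 knockout arrays lay below all 3 control arrays, as for 4.65% of all genes in that direction, with a difference of -0.34 (SE 0.15, limma unadjusted p = 0.0417, adjusted p = 0.999). Socs3 differed by -0.52 (SE 0.18, unadjusted p = 0.0184, adjusted p = 0.999), but its other probe set went the opposite way, at 0.34. Sh2b3, the adaptor LNK that restrains cytokine receptors, was higher in all 3 knockout arrays, as for 3.68% of all genes. Its difference was 0.27 (SE 0.14, limma adjusted p = 0.999). Socs2 differed by 0.48 (SE 0.32) on its brighter probe set and by 0.00 on the other. The phosphatase gene Ptpn2 differed by 0.24 (SE 0.16) on its brighter probe set and by 0.74 (SE 0.24, fitted over all probe sets) on the other.

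The promoter of Cish is shown because its message is the usual readout of STAT5 activity and because it holds 2 copies of the STAT5 motif. The RefSeq window of 300 bases, from 250 before to 50 after the start, is GRCm38.p6 chr9:107296409-107296708 on the plus strand, with TTCNNNGAA in capitals. The motif reads the same on both strands and its copies here do not overlap. They begin at positions 1 and 12 counted from the start, so neither lies in the part before it.
Cish: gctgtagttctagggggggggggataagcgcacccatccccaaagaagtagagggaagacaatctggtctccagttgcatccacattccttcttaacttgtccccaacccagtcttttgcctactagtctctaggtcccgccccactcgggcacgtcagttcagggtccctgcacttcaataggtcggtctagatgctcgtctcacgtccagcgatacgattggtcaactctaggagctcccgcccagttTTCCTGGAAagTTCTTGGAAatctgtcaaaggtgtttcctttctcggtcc

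Of 32851 promoter windows of this length, 8.3% held the motif and 0.457% held 2 or more. Of the 10 receptor, JAK and STAT5 genes, 9 had a window, 12 windows in all, and 1 window held the motif, that of Il7r. It is shown in a stretch at chr15:9529980-9530048 of GRCm38.p6 on the minus strand, with the motif in capitals. A match is a description of letters and not of a bound site.
Il7r: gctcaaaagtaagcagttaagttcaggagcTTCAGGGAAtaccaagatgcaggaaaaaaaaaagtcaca

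Of 15 measured genes that STAT5 can induce, 6 differences were positive and 9 negative, with a median of -0.08, and 3 had an unadjusted p under 0.05, in both directions, against 3.47% of all genes. Granzyme B (Gzmb), a cytotoxic protease that IL-15 induces, was at 8.81, 9.13 and 8.75 in control arrays and 8.58, 8.46 and 8.15 in knockout arrays. The genotypes did not overlap, as for 4.65% of all genes in that direction, with a difference of -0.50 (SE 0.17, limma adjusted p = 0.999). Gzmb lies on chromosome 14, as the deleted locus does. All 4 genes past the adjusted threshold among the 19938, Mir15a being 1 of them, lie on that chromosome too. The part of this location in the Gzmb values was not tested. Gzmb also belongs to the 10 genes of the mature CD11b+ CD27- stage, of which 4 differences were positive and 6 negative, with a median of -0.16. Mean log2 levels of the 10 were 6.94 to 7.27 in control and 6.72 to 7.07 in knockout arrays. In that list Entpd1 was at -0.65 (SE 0.32) and Irf8 at -0.36 (SE 0.19), both overlapping between genotypes. Its 4 positive differences were small: S1pr5 at 0.08, Itgam at 0.02, Klrg1 at 0.02 and Zeb2 at 0.01. The 9 measured genes of the immature stage, with Il7r counted among them, had a median of 0.32. The part of these stage markers in the Gzmb values was not tested. The cyclin gene Ccnd3 went the other way, at 0.32 (SE 0.13, limma adjusted p = 0.999). It too had no overlap, as for 3.68% of all genes in that direction. Cish is the third gene with an unadjusted p under 0.05. The survival genes Bcl2 and Mcl1 differed by 0.14 (SE 0.15) and -0.08 (SE 0.14), and the kinase gene Pim1 by 0.15 (SE 0.22). Bcl2, Mcl1 and Pim1 were chosen for naming with their values in view, as were Il15 among the ligands and Ptpn2 among the negative regulators.

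The branch from the receptors to PI3K, MAPK and mTOR had 20 measured genes of 27, with 13 positive and 7 negative differences and a median of 0.04. Its smallest unadjusted p was that of Gab2, a scaffold between cytokine receptors and PI3K, at 5.41, 5.71 and 4.80 in control arrays and 6.03, 5.89 and 5.59 in knockout arrays. The genotypes overlapped, and the difference was 0.53 (SE 0.23, limma unadjusted p = 0.0442, adjusted p = 0.999). Tsc1, an inhibitor of mTOR complex signalling, was higher in all 3 knockout arrays, as for 3.68% of all genes, at 0.23 (SE 0.14). The kinase gene Map2k2 differed by -0.28 (SE 0.19) and the exchange factor gene Sos2 by 0.21 (SE 0.15).

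**Figure D4:**
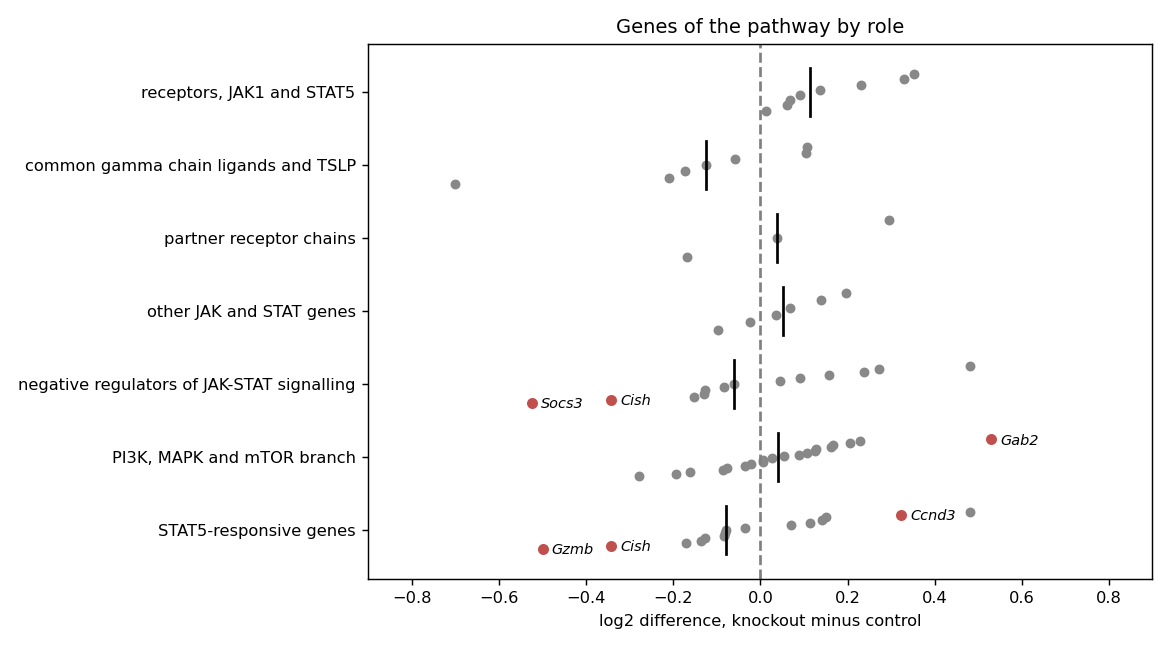
Log2 difference between genotypes, knockout minus control (horizontal axis), of each measured gene by role in the pathway (vertical axis; height within a row only separates the points), with each list's median as a black bar. Red points with names had an unadjusted limma p under 0.05, and none of the genes shown passed the adjusted threshold.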

How the data were processed

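The authors deposited 1 table of log2 values for 35556 probe sets on 6 arrays. RMA and Partek 6.6 are listed, with no step assigned to either, per the submitters' processing notes. RMA compresses differences of dim probe sets. Of the genome build it can be said only: not given in the sources used here. Values were used as deposited. Names came from the annotation GEO holds for the platform, in which 21789 probe sets had 1 symbol, 1621 several and 12146 none, and the brightest probe set stood for a gene.

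Genotypes were compared over 19938 genes by the two-sided moderated test of limma 3.58.1 (R 4.3.3, lmFit then eBayes), genotype being the sole term, with Benjamini-Hochberg adjustment over all genes, and the method was tested on simulated data. For a single gene, an exact permutation test of 3 against 3 arrays cannot go below p = 0.1, and it was above that for every gene of the 8 but Il2ra. The members and lists were chosen with earlier results of these data known. By rule, the genes named are the members, the 4 of each pathway list with the smallest p, the 3 nearest to Il15ra, the deleted locus and sex-linked transcripts. Bcl2, Mcl1, Pim1, Il15, Ptpn2 and the markers of cell types and stages are named outside this rule. Promoter and microRNA sequences come from RefSeq on GRCm38.p6. No scanner files or detection calls were used. Array data carry no depth, and the number of arrays limits the precision.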

Additional observations from a re-analysis of the deposited data

How the results depend on the processing

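Across 17 alternatives (centring, quantile normalization, dim probe sets removed, other variance models, other probe set choices, sex-linked transcripts, replicate numbers, and each array left out), 0 of the 8 genes passed the adjusted threshold in any, and 0 genes of the 6 pathway lists did. The lowest adjusted p of any of the 8 genes was 0.991 (limma). The filters on dim probe sets leave out Il2ra, which then has no value. Signs turned for the smallest differences: with a further quantile normalization Stat5b was at -0.0161, and with single arrays left out Stat5b ran from -0.0474 to 0.13, Stat5a from -0.0333 to 0.14 and Il21r from -0.0521 to 0.18. The cause was not tested. The number of genes past the threshold among all genes, 4 with all arrays, was 2 with the sex-linked covariate, 0 when every probe set of the table was tested (added after seeing the data), and 2 to 3 with single arrays left out, being 2 without knockout array 2 or 3 or control array 1 or 3.

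Replicate numbers 1 to 3 occur in both genotypes. Deviations from the genotype means correlated with r = 0.048, 0.148 and 0.141 between arrays of the same number. Between arrays of unlike number, r ran from -0.186 to 0.045. Each array was thus nearest to the array of its own number, narrowly so for number 1. The labels state no pairing, so the main fit has none. Whether arrays of a number share a batch was not tested. With the replicate number as a block, Il15ra kept its difference of 0.35 with an SE of 0.15 (limma unadjusted p = 0.0427, adjusted p = 0.999), 0 of the 8 genes passed, and 3 of all genes did.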
